A study of Homo sapiens with 4 samples.

Results

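IGF2BP2 iRIP-seq peaks were examined on 10 genes, namely the 3 members of the IGF2BP family and 7 genes of the N6-methyladenosine (m6A) machinery. These were IGF2BP1, IGF2BP2, IGF2BP3, METTL3, METTL14, WTAP, VIRMA, FTO, ALKBH5 and YTHDF2, out of 20037 protein-coding genes. A peak was taken as a member's when it lay on the coding strand of the gene and carried the gene's Ensembl identifier (a sense peak). The 10 genes held 65 of the 74237 sense peaks in replicate 1 and 59 of the 77288 in replicate 2.

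The data came from Jurkat cells, an established human line of T cell acute lymphoblastic leukemia. RNA was recovered with an antibody against IGF2BP2 after UV crosslinking, and the design held 2 IGF2BP2_IP libraries and 2 input libraries without any treatment or genotype contrast. The inputs were not analysed here, so the peaks of the IGF2BP2_IP replicates were described without a comparison of conditions. The labels do not say whether the replicates came from separate cultures, so the spread between them may be technical.

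N6-methyladenosine is a reversible mark of mRNA. METTL3 is the catalytic subunit of the writer complex, METTL14 its RNA-binding partner, and WTAP and VIRMA are regulatory and scaffold subunits. FTO and ALKBH5 are demethylases that remove the mark. YTHDF2 is a reader that promotes mRNA decay, whereas the IGF2BP proteins are readers that stabilize mRNA and support translation. The lists show which RNAs of this machinery carried IGF2BP2 peaks, the RNA of IGF2BP2 itself included.

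The lists held 145715 peaks in replicate 1 and 137934 in replicate 2. Peak height was given in tags, with a lowest value of 4 tags in replicate 1 and 5 in replicate 2. The median equalled that lowest value in each list. Some wider peaks had fractional heights, such as 7.5 tags over chr17:48997450-48997550 in replicate 1, so a height is not a plain count of reads on the peak. The number of reads per library was unknown and heights were not adjusted for depth, so percentiles of height were taken within a list. The height cutoffs and 1 ranking of shared peaks, however, used unadjusted heights of both lists. To set the labelled cell line beside the peaks, markers were counted. A sense peak in both lists was present on 7 of 8 T cell, 0 of 4 B cell and 1 of 4 myeloid markers (CSF1R). Over all 20037 protein-coding genes the share was 43.5%. MS4A1, CD79A and MPO had a peak of 5 tags in replicate 2 alone. Such short marker lists are a description and do not establish the identity of the cells.

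Each of the 10 genes had at least 1 sense peak in at least 1 list. A sense peak was present on 9 members in replicate 1 and on 9 in replicate 2, and 8 members had one in both lists. Across all 20037 protein-coding genes, the same was true of 54.1% in replicate 1, 52.6% in replicate 2 and 43.5% in both. METTL3 had peaks in replicate 2 alone and METTL14 in replicate 1 alone. The member total was 62.0 ± 4.24 sense peaks per list (SD, n = 2). Peaks of a gene share a transcript and a library, so the peaks were not independent observations. Peak numbers were also not relative to RNA abundance, which the lists do not give.

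Introns took the largest part of the members' sense peaks, with 43 of 65 in replicate 1 and 41 of 59 in replicate 2. Exonic peaks, whose main region was coding sequence (CDS), 5′ UTR, 3′ UTR or noncoding exon, numbered 22 and 18. The exonic share was 33.8% (95% Wilson interval 23.5 to 46.0) in replicate 1 and 30.5% (20.3 to 43.1) in replicate 2, whereas it was 30.8% and 37.6% over all other sense peaks. The share of the other peaks lay inside the members' interval in each list. Such intervals cover counting error only, because peaks of a gene share a transcript and PCR copies are not independent molecules. The intervals can therefore be too narrow.

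The exonic share differed between members, and for some it also differed between the lists. Exonic peaks of ALKBH5 were 7 of 10 in replicate 1 and 8 of 9 in replicate 2, and those of WTAP were 1 of 2 and 3 of 3. For IGF2BP1 and YTHDF2 the share rested on replicate 1, with 7 of 11 and 5 of 6 exonic peaks there but 2 of 6 and 1 of 3 in replicate 2, or 33.3% each. IGF2BP3 had 2 of 11 and 2 of 15 exonic peaks and FTO had 0 of 19 and 1 of 14, and IGF2BP2 and VIRMA had intronic peaks alone in each list. METTL3 and METTL14 had 2 peaks and 1 peak, too few for a share. Exonic peaks in both lists were found on 5 of the 10 genes (IGF2BP1, IGF2BP3, WTAP, ALKBH5 and YTHDF2), beside 22.0% of all protein-coding genes. Of the 8 members with sense peaks in both lists, 2 (IGF2BP2 and VIRMA) lacked an exonic peak in either list, beside 25.9% of the 8713 protein-coding genes with sense peaks in both. FTO alone supplied 33 of the sense peaks, and without it the exonic share, computed after the values were seen, was 47.8% in replicate 1 and 37.8% in replicate 2.

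**Figure D1:**
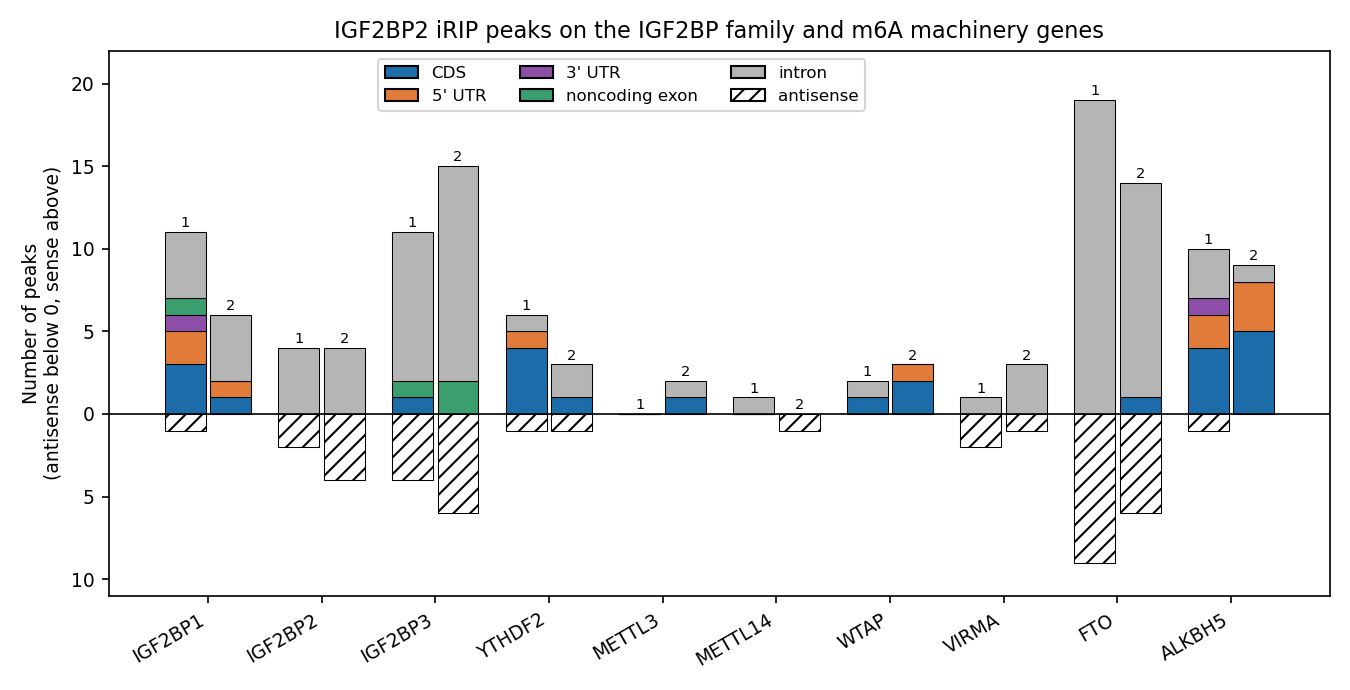
Number of peaks on each of the 10 genes by main region, with sense peaks above 0 and antisense peaks below 0; each bar is 1 IGF2BP2_IP replicate (1 or 2). FTO and IGF2BP3 carried mostly intronic peaks, ALKBH5 carried 7 and 8 exonic peaks, and IGF2BP2 carried 4 intronic peaks in each replicate.

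The transcript of the immunoprecipitated protein itself carried fewer sense peaks than the median of its length decile. IGF2BP2 (chr3:185643130-185825042, minus strand, GRCh38) had 4 sense peaks in replicate 1 and 4 in replicate 2, each of them intronic. Their heights were 4, 4, 4 and 5 tags in replicate 1 and 5 tags for each in replicate 2, so 7 of the 8 lay at the lowest value of their list. None had an overlapping partner in the opposite list, and the closest peaks of the lists were 1900 nt apart, near the 3′ end of the gene. IGF2BP2 spans 181913 nt, and its intronic peaks amounted to 2.2 per 100 kb of gene in each list, beside 2.86 and 2.79 over all other protein-coding genes. Among the 2003 genes of its length decile, 30.3% had fewer sense peaks in replicate 1 and 39.3% in replicate 2, where genes without a matched identifier counted as having none. The decile medians were 6.0 and 5.0 sense peaks, so the count of IGF2BP2 was not far below them. The opposite strand of the locus carried 2 peaks in replicate 1 and 4 in replicate 2.

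IGF2BP1, the paralog best known as an oncofetal mRNA-stabilizing protein, had more peaks on a shorter gene. It had 11 sense peaks in replicate 1 and 6 in replicate 2 (8.5 ± 3.54, SD, n = 2) over 59588 nt. In replicate 1 these were 3 CDS, 2 5′ UTR, 1 3′ UTR, 1 noncoding exon and 4 intron peaks. Replicate 2 held 1 CDS, 1 5′ UTR and 4 intron peaks. The exonic peaks of replicate 1 lay near the 5′ end and in the part of the gene from 67.6% to 89.5% of its length, and those of replicate 2 lay near the 5′ end. The highest IGF2BP1 peak of each list fell in the same place in the 5′ UTR. It spanned chr17:48997450-48997550 with 7.5 tags in replicate 1 and chr17:48997450-48997500 with 8 tags in replicate 2, about 942 nt from the 5′ end of the RefSeq gene. In replicate 1, 94.2% of all sense peaks were lower than this peak, and in replicate 2 it was 83.5%. Other peaks close by did not coincide: replicate 1 had 5′ UTR and exon-intron border peaks at chr17:48997700-48997750 and chr17:48997900-48997950, and replicate 2 had a CDS peak between them at chr17:48997800-48997850.

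IGF2BP3, the other oncofetal paralog, had 11 sense peaks in replicate 1, as many as IGF2BP1, and 15 in replicate 2, the most of the family there (13.0 ± 2.83, SD, n = 2). Of these, 9 and 13 were intronic and spread over the 160283 nt of the gene. Its intronic peaks reached 5.62 and 8.11 per 100 kb, above the 2.86 and 2.79 of all other protein-coding genes and above the 2.2 of IGF2BP2. Heights were low, since 10 of 11 peaks in replicate 1 and 13 of 15 in replicate 2 lay at the lowest value of the list. The highest peak of replicate 1 was a CDS peak of 6 tags at chr7:23351300-23351350, without a counterpart within 3250 nt in replicate 2. In replicate 2 the highest value was also 6 tags, in a pair of intronic peaks at chr7:23371100-23371150 and chr7:23458900-23458950. The lists shared a noncoding exon peak at chr7:23415200-23415250, with 4 tags in replicate 1 and 5 in replicate 2. This shared peak stood at the lowest height of each list, and replicate 2 had a further noncoding exon peak 50 nt away.

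YTHDF2, the decay-promoting reader, had 6 sense peaks in replicate 1 and 3 in replicate 2 (4.5 ± 2.12, SD, n = 2) over 33152 nt. Replicate 1 held 4 CDS, 1 5′ UTR and 1 intron peak, and replicate 2 held 1 CDS and 2 intron peaks. The replicates met at chr1:28737650-28737700, a CDS peak 1051 nt from the 5′ end, of 4 tags in replicate 1 and 7 in replicate 2. It was the highest YTHDF2 peak of replicate 2 but stood at the lowest value of the list in replicate 1. The highest peaks of replicate 1 had 6 tags, in the 5′ UTR at chr1:28737050-28737100 and in the CDS at chr1:28743100-28743150, and neither was found in replicate 2.

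The writer genes METTL3, METTL14, WTAP and VIRMA together held 4 sense peaks in replicate 1 and 8 in replicate 2. Among genes of like length these counts were not uniformly low: the median of the length decile was 0 for METTL3, 1 for METTL14 and for WTAP, and 2 for VIRMA in each list. Fewer sense peaks than WTAP were found on 63.9% of its decile in replicate 1 and 73.8% in replicate 2, and fewer than VIRMA on 25.5% and 62.7%. METTL3, the methyltransferase, had 0 in replicate 1 and 2 in replicate 2. Its peaks were a CDS peak at chr14:21499750-21499800 and an intron peak at chr14:21500450-21500500, of 6 tags each, and both reached across a CDS and intron border. They lay at 87.6% and 82.3% of the 13203 nt of the gene, counted from its 5′ end. METTL14, its partner, had a lone intronic peak of 4 tags at chr4:118697800-118697850 in replicate 1 and 0 in replicate 2. A gene listed without a peak is not a gene without binding, because a region needed at least 4 or 5 tags to enter a list, and IP peaks also found in the input had been discarded.

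WTAP, the subunit that places the writer complex in nuclear speckles, had 2 sense peaks in replicate 1 and 3 in replicate 2 over 29627 nt. None stood at the lowest value of its list, and none lay on the opposite strand. The highest peak was the same in both lists, at chr6:159736250-159736300, with 8 tags in each. The annotation of this peak was 0.6 CDS, 0.16 5′ UTR and 0.14 intron by length, and 94.4% of sense peaks in replicate 1 and 83.5% in replicate 2 were lower. The remaining WTAP peaks were found once each: an intron peak of 7 tags at chr6:159738950-159739000 in replicate 1, and in replicate 2 a CDS peak of 6 tags at chr6:159753450-159753500 and a 5′ UTR peak of 7 tags at chr6:159727150-159727200.

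The 5′ UTR peak of WTAP reached into the RefSeq promoter window of the gene (GRCh38.p14), and its first bases are shown because they were the only member peak bases that the sequence tables used here contained. The run is chr6:159727137-159727166 on the plus strand, 5′ to 3′, with the 16 bases inside the peak in capitals when peak positions are counted from 0.
WTAP: ctgagctccggggcCCGCGGAGCTCGCGCC
The other 34 of the 50 peak bases lay beyond the window. GGA, the start of the GGAC m6A motif, was searched on the sense strand and occurred once in the capitals. The next base there was G, so the letters shown do not hold GGAC. The last 16 bases of 28.8% of all 35116 promoter windows held it as well, so the match is a description of these letters and not a site.

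VIRMA, the scaffold of the writer complex, had 1 sense peak in replicate 1 and 3 in replicate 2, all intronic. The highest peak had 4 tags in replicate 1 and 6 in replicate 2. These highest peaks lay 300 nt apart, at 80.0% and 79.4% of the gene from its 5′ end, and did not overlap. Peaks on the opposite strand numbered 2 in replicate 1 and 1 in replicate 2.

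The demethylase genes differed from each other in where their peaks lay, with FTO peaks in introns and ALKBH5 peaks mostly in exons. FTO (chr16:53703963-54121941, plus strand) had 19 sense peaks in replicate 1 and 14 in replicate 2 (16.5 ± 3.54, SD, n = 2) over 417979 nt. All 19 of replicate 1 and 13 of replicate 2 were intronic, and the remaining peak was a CDS peak of 5 tags at chr16:53825850-53825900. No FTO peak was overlapped by the other replicate. Of these peaks, 2 in replicate 1 and 1 in replicate 2 carried the FTO identifier but lay beyond the 3′ end of the RefSeq gene. The heights were at the lowest value of the list for 17 and 12 peaks, and the highest had 5 tags in replicate 1 and 6 in replicate 2. Intronic density was 4.55 and 3.11 per 100 kb, beside 2.86 and 2.79 over all other protein-coding genes. These FTO densities count the peaks beyond the 3′ end and would be lower without them. On the opposite strand lay 9 and 6 further peaks, some of those in replicate 1 also beyond the 3′ end.

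ALKBH5 (chr17:18183828-18209954, plus strand) had 10 sense peaks in replicate 1 and 9 in replicate 2 (9.5 ± 0.707, SD, n = 2) on a gene of 26127 nt. Per length this was the most of the 10 genes, at 38.3 and 34.4 sense peaks per 100 kb. In its length decile of 2002 genes, 94.1% had fewer in replicate 1 and 90.6% in replicate 2. Replicate 1 held 4 CDS, 2 5′ UTR, 1 3′ UTR and 3 intron peaks, and replicate 2 held 5 CDS, 3 5′ UTR and 1 intron peak. Of the intron peaks in replicate 1, that at chr17:18183500-18183550 lay before the 5′ end of the RefSeq gene but was counted in the density.

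ALKBH5 was also the member with the most positions found in both lists. The first shared peak, chr17:18183900-18183950 in the 5′ UTR, had 6 tags in replicate 1 and 8 in replicate 2 and lay 97 nt from the 5′ end of the gene. The next, chr17:18184050-18184100 in the 5′ UTR at 247 nt, had 5 and 10 tags. The shared CDS peak at chr17:18206800-18206850 lay at 88.0% of the gene and had 4 and 7 tags. Each replicate thus had ALKBH5 peaks near the 5′ end and in the CDS at 88.0% of the gene. A 3′ UTR peak was listed in replicate 1 alone, with 4 tags, below the lowest value of 5 tags in replicate 2.

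The highest peak of the 10 genes was not shared. It was an ALKBH5 CDS peak of 16 tags at chr17:18208200-18208250 in replicate 2, higher than 97.8% of the sense peaks of that list. Replicate 1 had no sense peak within 600 nt of it, but listed a peak of 4 tags in the same bin on the opposite strand. The highest ALKBH5 peak of replicate 1, a CDS peak of 7 tags at chr17:18194950-18195000, was 1400 nt from the nearest sense peak of replicate 2.

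**Figure D2:**
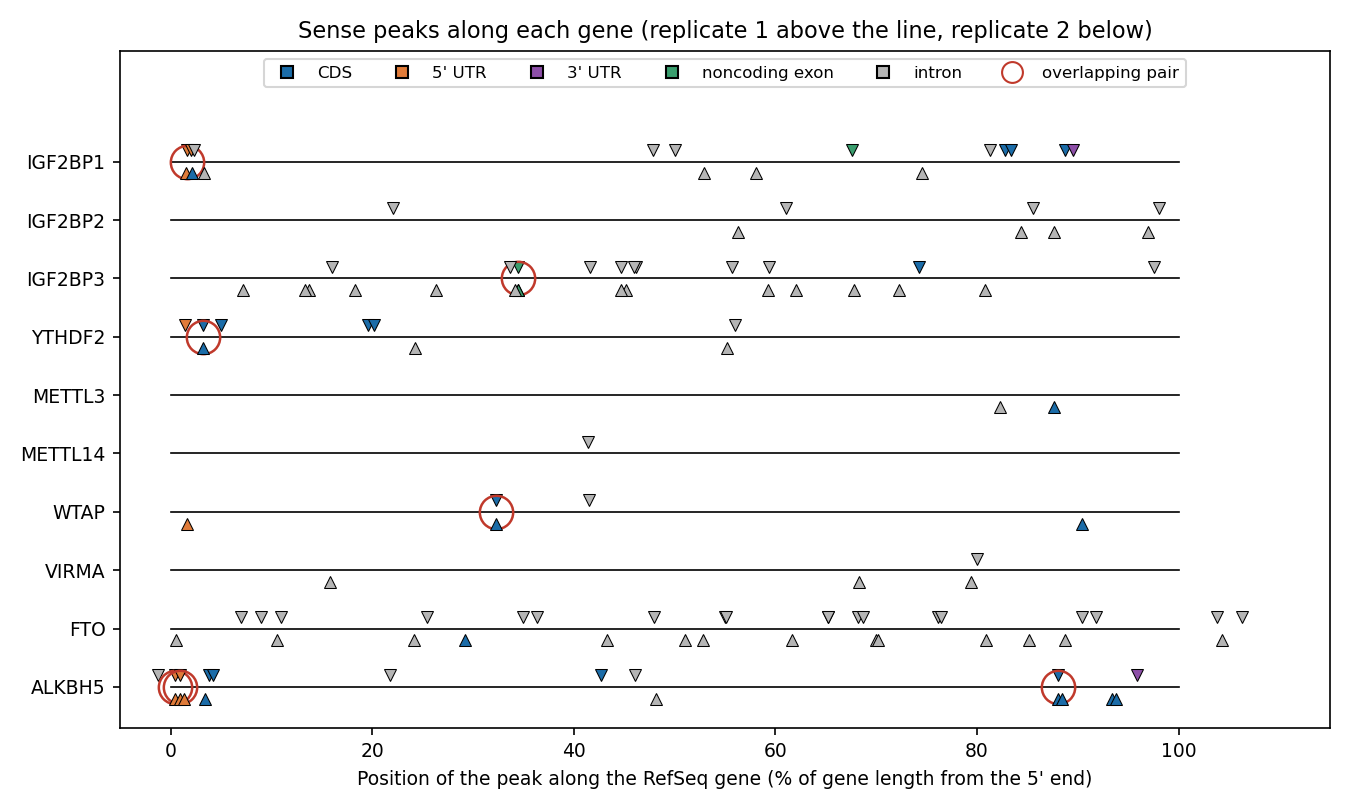
Position of each sense peak along its gene, as percent of the RefSeq gene length from the 5′ end, coloured by main region, with replicate 1 above and replicate 2 below each line and rings around overlapping pairs. The 7 overlapping pairs lay on IGF2BP1, IGF2BP3, YTHDF2, WTAP and ALKBH5, and 4 of them lay within the first 4% of their gene.

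Most member peaks were close to the lowest height of their list, as were most peaks of other genes. At the lowest value of the list were 50 of 65 peaks (76.9%, interval 65.4 to 85.5) in replicate 1 and 39 of 59 (66.1%, 53.4 to 76.9) in replicate 2, and these intervals held the 66.8% and 54.4% of all other sense peaks. Peaks of 10 tags or more numbered 0 of 65 in replicate 1, which allows a share of up to 4.62%, and 2 of 59 (3.39%, 0.935 to 11.5) in replicate 2, both on ALKBH5. Among all other sense peaks 2.73% and 8.75% were as high, within the range that the member counts allow. None of the 10 genes had a peak of 10 tags or more in both lists, beside 3.75% of all protein-coding genes.

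**Figure D3:**
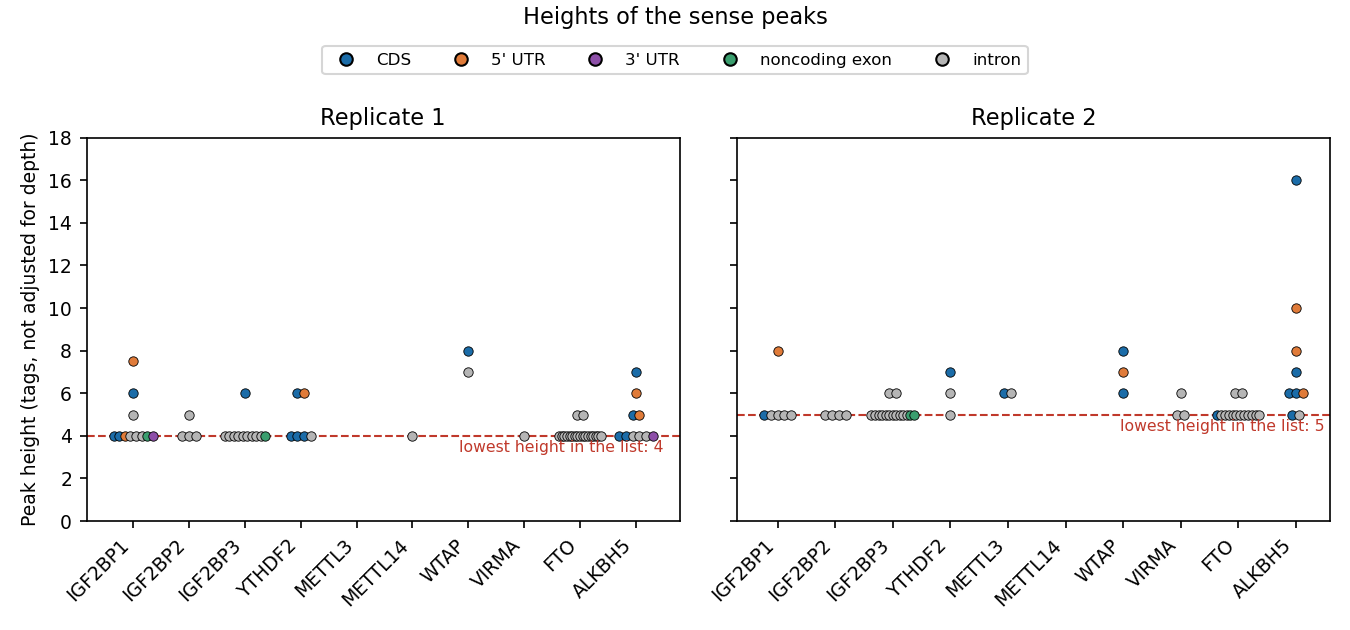
Height of each sense peak in tags, not adjusted for depth, for each of the 10 genes in replicate 1 (left) and replicate 2 (right), coloured by main region; the dashed line marks the lowest height in the list, 4 and 5 tags. Most points lie on the dashed line, and the ALKBH5 peak of 16 tags in replicate 2 is the highest.

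Overlap between the replicates was found at 7 places on 5 of the 8 members with sense peaks in both lists, beside 34.4% of the 8713 protein-coding genes with sense peaks in both. The members without a pair were IGF2BP2, VIRMA and FTO, whose peaks were intronic apart from 1 CDS peak of FTO. Overlap of at least 1 bp on the same strand was seen for 10.8% (5.32 to 20.6) of the member peaks in replicate 1 and 11.9% (5.87 to 22.5) in replicate 2, whereas 16.7% and 15.8% of all other sense peaks overlapped.

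Among the overlapped peaks of other genes, 70.4% in replicate 1 and 71.9% in replicate 2 were exonic, and all 7 overlapping pairs of the members were. They comprised 7 of the 22 exonic member peaks in replicate 1 (31.8%, interval 16.4 to 52.7) and 7 of the 18 in replicate 2 (38.9%, 20.3 to 61.4), beside 38.1% and 30.3% of the exonic peaks elsewhere. Of the intronic member peaks, 0 of 43 and 0 of 41 overlapped, beside 7.12% and 7.13% of all other intronic peaks. The limit of 3 counts allows shares of up to 6.98% and 7.32%, close to those values. The upper Wilson bounds of 8.2% and 8.57% lay above them. Of the pairs, 3 lay in a 5′ UTR, 1 on IGF2BP1 and 2 on ALKBH5. That was 42.9% of the pairs, compared with 6.56% and 6.54% of the overlapped peaks of other genes, and rested on 2 genes.

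5′ UTR peaks made up 7.69% (3.33 to 16.8) of the member peaks in replicate 1 and 8.47% (3.67 to 18.4) in replicate 2, with 5 peaks in each. All other sense peaks had 2.77% and 3.33% in a 5′ UTR, below the lower bound of the interval in each list. This rested on ALKBH5, which held 2 and 3 of the 5 peaks. Without it, a step added after the values were seen, the shares were 5.45% (1.87 to 14.9) and 4.0% (1.1 to 13.5), and the intervals held the shares of the other peaks. The members' 5′ UTR peaks came from 4 genes and were on IGF2BP1, ALKBH5 and YTHDF2 in replicate 1 and on IGF2BP1, ALKBH5 and WTAP in replicate 2. CDS peaks made up 20.0% (12.1 to 31.3) and 18.6% (10.7 to 30.4) of the member peaks, and the 19.9% and 25.6% of all other sense peaks lay inside these intervals. 3′ UTR peaks were seen in replicate 1 alone, on IGF2BP1 and ALKBH5, with 4 tags each. The lowest value in replicate 2 was 5 tags, so peaks of that height could not be listed there.

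On the opposite strand, the 10 genes carried 20 peaks in replicate 1 and 19 in replicate 2. Antisense peaks were 23.5% (15.8 to 33.6) and 24.4% (16.2 to 34.9) of the sense and antisense peaks of the members, beside 28.1% and 23.0% elsewhere. Per length of gene, the antisense peaks of YTHDF2 were 3.02 per 100 kb in each list, from 1 peak each. Those of VIRMA were 3.04 and 1.52, from 2 peaks and 1 peak. Those of IGF2BP3 were 2.5 and 3.74, those of FTO 2.15 and 1.44 and those of IGF2BP2 1.1 and 2.2. Over all other protein-coding genes the values were 1.41 and 1.12. For FTO, the 2.15 of replicate 1 includes peaks beyond the RefSeq gene. WTAP and METTL3 had none in either list, IGF2BP1 and ALKBH5 had 1 each, in replicate 1, and METTL14 had 1 in replicate 2. These lone peaks came to 1.68, 3.83 and 3.33 per 100 kb. Set against intronic peaks, antisense peaks over both lists were 15 of 47 intronic and antisense peaks for FTO, 10 of 32 for IGF2BP3, 6 of 14 for IGF2BP2, 3 of 7 for VIRMA and 2 of 5 for YTHDF2. They were 1 of 9 for IGF2BP1, 1 of 5 for ALKBH5 and 1 of 2 for METTL14. For all 10 genes this share was 31.7% in each list, beside 36.1% and 32.4% elsewhere. IGF2BP2, VIRMA and METTL14 had as many peaks on the opposite strand as in the sense direction, or more, in 1 replicate each. For METTL14 this was 1 antisense and 0 sense peaks in replicate 2. The highest antisense peaks had 7 tags, on FTO and VIRMA in replicate 2, and exceeded the highest sense peak of the same gene in that list, which had 6 tags. The part of the antisense signal in the intronic peaks of these genes was not tested.

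A further 20 genes of m6A writing and reading were examined for context. Sense peaks were present on 19 in replicate 1 and 16 in replicate 2, and 15 had them in both lists, beside the 43.5% of all protein-coding genes given above. CBLL1, METTL5, YTHDF3 and FMR1 had peaks in replicate 1 alone and YTHDC2 in replicate 2 alone, and no gene of the list lacked a peak in both. The highest peaks of METTL5, YTHDF3 and FMR1 had 4 tags, below the lowest value of 5 tags in replicate 2. Peaks of that height could not be listed there. Their exonic share was 65.7% of 134 peaks and 66.5% of 176, compared with 33.8% and 30.5% for the members. PRRC2A, an m6A reader, held 43 and 41 of these peaks, and without it the share was 54.9% and 62.2%. Without FTO, the members' share was 47.8% in replicate 1 and 37.8% in replicate 2. The sets were not matched for gene length, and the part of gene length in this difference was not tested. The median per gene was 3.5 and 7.5 sense peaks, beside 5.0 and 3.5 for the members.

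The highest shared peaks of PRRC2A and RBMX exceeded every shared peak of the members. They were a CDS peak of PRRC2A with 22 and 36 tags, and an intron peak of RBMX, a nuclear RNA-binding protein, with 14 and 12 tags. A CDS peak of HNRNPC, which binds uridine tracts near m6A, had 9 and 8 tags, and a noncoding exon peak of HNRNPA2B1, a nuclear m6A reader, had 7.5 and 9. A CDS peak of RBM15, which brings the writer complex to RNA, had 7 and 8 tags and was close to the best member pairs, on WTAP with 8 and 8 tags and on IGF2BP1 with 7.5 and 8. All 10 and 13 sense peaks of RBM15 were in the CDS, whereas those of METTL14 and VIRMA were intronic. METTL14 and VIRMA had just 1 and 4 sense peaks over both lists, and these genes were not matched for length. Copies of HNRNPC, HNRNPA2B1 and RBMX exist elsewhere in the genome, and their peaks rest on reads that mapped uniquely.

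**Figure D4:**
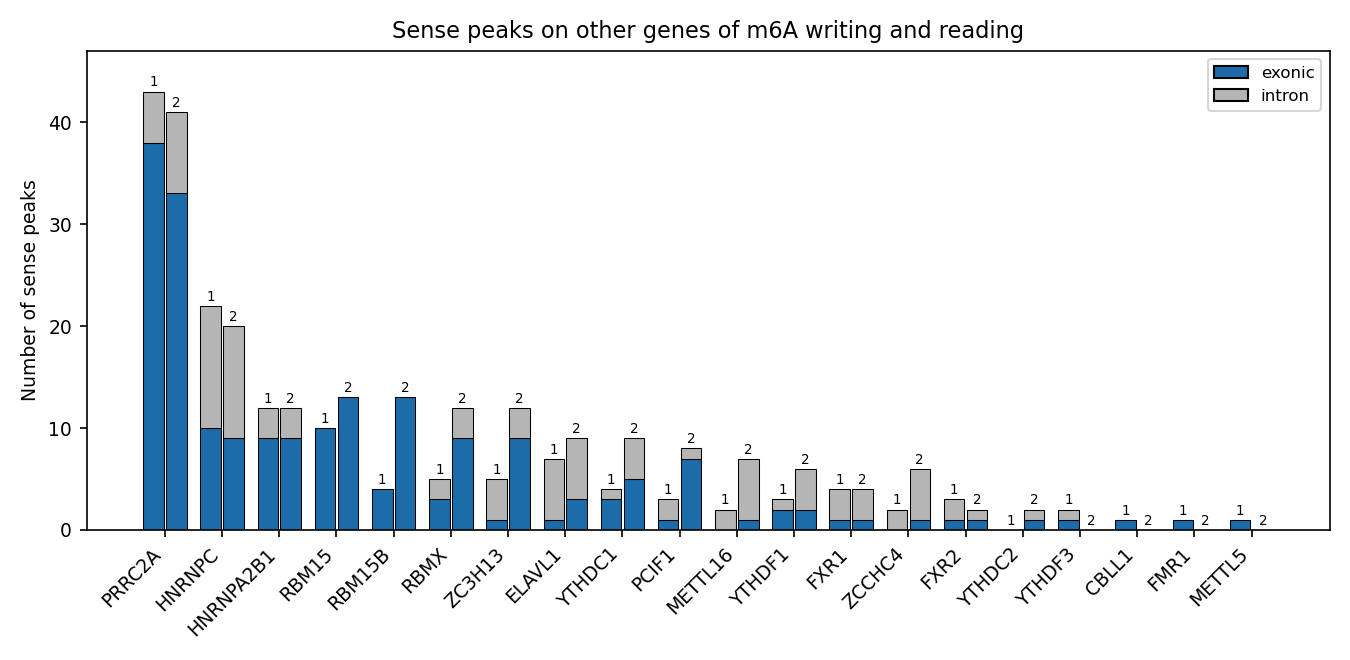
Number of sense peaks on 20 other genes of m6A writing and reading, exonic and intronic, with 1 bar for each IGF2BP2_IP replicate (1 or 2). PRRC2A had 43 and 41 peaks, mostly exonic. CBLL1, FMR1, METTL5 and YTHDF3 had none in replicate 2, whose lowest height was 5 tags against 4 in replicate 1.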

How the data were processed

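Per the paper's methods, the authors aligned paired-end reads with TopHat2, kept uniquely mapped reads, ran ABLIRC peak calling per library, and discarded IP peaks found in the input too. The submitters' processing notes name GRCh38 and bcl2fastq. The deposited peak height was used as a signal in tags, of which 98.6% in replicate 1 and 97.2% in replicate 2 were whole numbers. The deposited p-value of each peak was used as a filter in 1 alternative. The region shares and identifiers of the peaks are the authors' own, and the annotation behind them is not given in the sources used here.

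The main region of a peak was the class covering most of it, and positions were read as half-open intervals of 50 nt bins. The 10 members were found by Ensembl identifier, and all 10 were also named so by position in a RefSeq gene table (GRCh38.p14). For the background, identifiers were named for the protein-coding gene around 80% or more of their CDS and UTR peaks, or around all their peaks otherwise, with a margin of 1000 nt. Of 20428 identifiers with a sense peak, 12665 were named, and of the 7980 with CDS or UTR peaks 7602 were named. The shares and densities given for all genes can therefore be too low. Overlap required 1 bp on the same strand. Genes were compared within 10 groups of gene length. Intervals are 95% Wilson intervals, and 0 counts were given the limit of 3 counts. No test was run, since the design has a single group with peak lists.

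All members were named, with every shared peak and the highest peak of each list. Of the further m6A genes, those in 1 list alone were named after their values were seen, and the 5 with the highest shared peaks by rule. That rule ranked each pair on the lower of its unadjusted heights. The members and gene lists were chosen with earlier results of these data known. Alternatives were the height, the p-value, exonic peaks, RefSeq intervals, the overlap, the weighting by length and each replicate alone. The counting and overlap steps were tested on simulated data, with matplotlib 3.10.9 for figures, scipy 1.17.1, pandas 2.3.3 and numpy 2.4.6 under Python 3.11.15.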

Additional observations from a re-analysis of the deposited data

How the results depend on the processing

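With RefSeq intervals in place of identifiers, 8 members had sense peaks in both lists, as in the main count, beside 49.8% of the 15845 protein-coding genes with a known strand. At 10 tags or more, 0 members and 3 of the further m6A genes had peaks in both lists, with 1.0 member peaks per list, and shares could not be computed. At 5 tags or more in both lists, the members had 37.0 sense peaks per list, of which 29.3% were CDS, 48.6% exonic and 16.7% overlapped. This filter removed peaks from replicate 1 alone, whose floor was lower, so these are means of unlike lists: replicate 1 kept 15 peaks, 66.7% exonic and 26.7% overlapped (49.4% and 35.9% of other peaks), and replicate 2 had 59, 30.5% exonic and 6.78% overlapped (37.6% and 11.1%). Under a p-value below 0.001, 4 members and 7 of the further genes had peaks in both lists, with 8.0 member peaks, of which 56.2% were CDS, 93.8% exonic and 25.0% overlapped. Under it 11.9% of all protein-coding genes had peaks in both lists, and other sense peaks were 60.8% and 62.9% exonic, 45.6% and 48.0% CDS, and 37.1% and 20.4% overlapped. The member shares rest on 8 peaks per list. With exonic peaks only, 5 members had peaks in both lists, with 20.0 peaks, of which 35.4% overlapped. Overlap was 12.2% with strand ignored and 12.9% where touching peaks counted, and the CDS share weighted by length was 17.0%. With each replicate left out, the members with a sense peak numbered 9 and 9, the further genes 16 to 19, the sense peaks 59 to 65, the CDS share 18.6% to 20.0% and the exonic share 30.5% to 33.8%. Without FTO, chosen after seeing the data, the exonic share was 42.8%, and without ALKBH5 the 5′ UTR share was 4.73%. No paired analysis was possible because the inputs, which share replicate numbers with the IGF2BP2_IP libraries, were not analysed here. Without depth, input signal or RNA levels, peak numbers cannot be read as binding strength.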
